A study of Mus musculus with 43 samples.

Results

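The 9 cortical actin linker genes encode proteins that tie filamentous actin to the plasma membrane, bundle it, or hold actin monomers in reserve. They are the ERM genes Msn (moesin), Ezr (ezrin) and Rdx (radixin), the ERM partner Slc9a3r1, the plastin genes Pls1 and Pls3, the villin gene Vil1, and the beta-thymosin genes Tmsb4x and Tmsb10. They were picked by symbol from the 35815 symbols that all 3 deposited tables share, and all 9 were found. The choice was made knowing that Msn and Pls3 were lower in mutant morulae and that Tmsb4x was higher in mutant oocytes. Those differences from the control groups are therefore described without a test, and the other values were tested.

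The RNA came from 43 libraries of mouse full-grown oocytes and morulae, the stage at which the cells of the early embryo flatten against each other. The first oocyte set holds 2 wild-type libraries (PRC1-WT) and 2 PRC1 catalytic dead libraries (PRC1-CD), each of 10 pooled oocytes freed of their zona pellucida. The second set holds 3 wild-type oocyte libraries (WT), 3 of the Pcgf1/6 double knockout (DKO) and 3 in which Mll2 was lacking as well (TKO). The morula set holds 10 libraries each of WT, of maternal Pcgf1/6 double knockout (matDKO) and of maternal Pcgf1/6 and Mll2 triple knockout (matTKO). The strain, the age, the deletion driver and the number of oocytes or embryos per library of the knockout oocyte set and of the morula set are not given in the sources used here. In the second PRC1-CD library the tissue label says embryo, while its title and stage say oocyte.

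ERM proteins sit folded and inactive in the cytoplasm until phosphorylation and a membrane lipid open them, after which one end holds actin and the other end holds membrane proteins directly or through the scaffold encoded by Slc9a3r1. In the mouse embryo ezrin gathers at the outward face of the cells during compaction, where microvilli persist, and villin and the plastins bundle the filaments inside such microvilli. Beta-thymosins bind actin monomers and keep them from polymerising. Polycomb repressive complex 1 (PRC1) marks histone H2A with ubiquitin, variant PRC1 assemblies are built around PCGF1 or PCGF6, and the enzyme MLL2, encoded by Kmt2b, methylates histone H3.

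In GRCm38, Msn lies on chromosome X from 96096042 to 96168552, Pls3 on X from 75785654 to 75875182, and Tmsb4x on X from 167207093 to 167209315. The other 6 are autosomal. Ezr lies on chromosome 17 (6738041 to 6782784), Rdx on 9 (52047173 to 52088735), Pls1 on 9 (95752642 to 95845311), Slc9a3r1 on 11 (115163341 to 115181181), Vil1 on 1 (74409376 to 74435559) and Tmsb10 on 6 (72957347 to 72958748).

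The 250 bases before the start site are shown for the 4 genes that were near 0 in control oocytes and that the results turn on. They are RefSeq sequences of GRCm38.p6, read 5′ to 3′ on the strand of the gene, with each CG dinucleotide in capitals. The windows are chrX:96095795-96096044 (plus strand) for Msn, chrX:75875183-75875432 (minus strand) for Pls3, chr17:6782781-6783030 (minus strand) for Ezr and chrX:167209219-167209468 (minus strand) for Tmsb4x. The last starts 97 bases inside the annotated gene end, at the RefSeq start site.
Msn: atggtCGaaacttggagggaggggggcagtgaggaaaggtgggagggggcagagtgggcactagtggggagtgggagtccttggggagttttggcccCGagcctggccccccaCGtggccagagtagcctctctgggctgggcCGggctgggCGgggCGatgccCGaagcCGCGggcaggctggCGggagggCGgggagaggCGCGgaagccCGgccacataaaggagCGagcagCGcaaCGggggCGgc
Pls3: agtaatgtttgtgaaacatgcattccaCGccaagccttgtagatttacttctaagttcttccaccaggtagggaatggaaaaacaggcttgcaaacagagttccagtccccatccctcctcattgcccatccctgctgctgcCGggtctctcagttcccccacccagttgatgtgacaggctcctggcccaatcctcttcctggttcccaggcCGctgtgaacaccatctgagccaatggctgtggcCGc
Ezr: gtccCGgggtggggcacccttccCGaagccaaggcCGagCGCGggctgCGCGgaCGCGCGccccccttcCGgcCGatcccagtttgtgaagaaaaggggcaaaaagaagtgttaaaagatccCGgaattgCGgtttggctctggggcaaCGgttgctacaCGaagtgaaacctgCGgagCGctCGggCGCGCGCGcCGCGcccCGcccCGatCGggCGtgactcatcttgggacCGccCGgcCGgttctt
Tmsb4x: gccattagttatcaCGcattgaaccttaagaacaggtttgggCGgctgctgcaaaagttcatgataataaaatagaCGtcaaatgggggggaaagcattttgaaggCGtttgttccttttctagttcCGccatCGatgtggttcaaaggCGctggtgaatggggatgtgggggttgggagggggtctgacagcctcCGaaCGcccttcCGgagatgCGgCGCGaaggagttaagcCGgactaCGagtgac
Ezr held 32 CG, a number reached by 4.58% of 32851 promoter windows of this length, whose median was 6. Msn held 18 CG and Tmsb4x 15, whereas Pls3 held 4. Among the other 5 genes the number ran from 3 in Rdx, through 5 in Vil1, 10 in Pls1 and 14 in Tmsb10, to 20 in Slc9a3r1. Pls3 and Tmsb10 each have 3 windows at different start sites and Rdx has 2. For these genes only the window nearest the annotated gene start was examined. The motif GGAATG, the core recognised by TEAD factors, was searched on both strands, overlapping matches included. It occurred 2 times in the Pls3 window and in none of the other 8, against 12.6% of all windows. The GC box GGGCGG, searched likewise and overlapping with the CG count, occurred 3 times in Msn, 2 times in Ezr, 1 time in Tmsb4x and not in Pls3, against 32.7% of all windows.

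The targeted genes were examined first. Pcgf1 stood at 1108 RPKM (reads corrected for gene length and for the library total) in WT oocytes and at 12.3 in DKO and 12.2 in TKO, Pcgf6 at 153.8, 57.1 and 72.2, and Kmt2b at 4.85, 3.90 and 1.14 (means, n = 3 each). PRC1-CD oocytes have no such check, since their label names a lost activity and not a lost transcript. All 10 oocyte markers exceeded 1 RPKM on average in every oocyte group, with summed levels of 10310 to 15650 RPKM per library. Morula values are treated as TPM, which are scaled to a fixed total, and 9 of 10 trophectoderm markers and 8 or 9 of 10 inner cell mass markers had a mean of at least 1 in each morula group. Morulae of every group held RNA of the targeted genes. In WT, matDKO and matTKO, Pcgf1 averaged 23.4, 9.94 and 14.9 TPM, Pcgf6 23.0, 20.3 and 17.65, and Kmt2b 6.69, 9.55 and 6.87. Sequencing depth is unknown, and 10902 to 13086 genes reached 1 in a given library. In these bulk samples fewer cells of a type and less RNA per cell cannot be told apart.

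Control oocytes held much Rdx and Tmsb10, some Pls1 and Vil1, little Slc9a3r1, and almost no Pls3, Ezr, Msn or Tmsb4x. On the RPKM scale, which allows levels of different genes to be compared, Rdx led in WT oocytes at 1364 ± 51.7 (SD, n = 3), followed by Tmsb10 at 1083 ± 55.1, Pls1 at 35.1 ± 1.22, Vil1 at 17.4 ± 3.49 and Slc9a3r1 at 5.0 ± 0.801. Pls3 followed at 0.913 ± 0.263, Ezr at 0.447 ± 0.146, Msn at 0.370 ± 0.180 and Tmsb4x at 0.220 ± 0.0100. The ranges of Ezr and Msn overlapped, as did those of Msn and Tmsb4x, and the other neighbours in this order did not overlap. PRC1-WT oocytes gave the same order, with Rdx at 1166 ± 197 and Tmsb4x at 0.0650 ± 0.00707 (n = 2). In WT morulae, by contrast, Tmsb10 led at 1899 ± 366 TPM (n = 10), Tmsb4x stood at 131 ± 195, Rdx at 50.9 ± 18.3, Slc9a3r1 at 41.7 ± 23.2, Ezr at 37.9 ± 11.1, Msn at 32.6 ± 15.96 and Pls3 at 20.2 ± 9.82. Pls1 and Vil1 stood at 0.420 ± 0.352 and 0.251 ± 0.396 TPM there, and neither passed the filter on low values of the morula table, which asks that some group average 1 or more. From Tmsb4x down to Pls3 every neighbouring pair of ranges overlapped. The oocyte and morula tables were normalised separately, so these orders were not tested against each other.

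**Figure D1:**
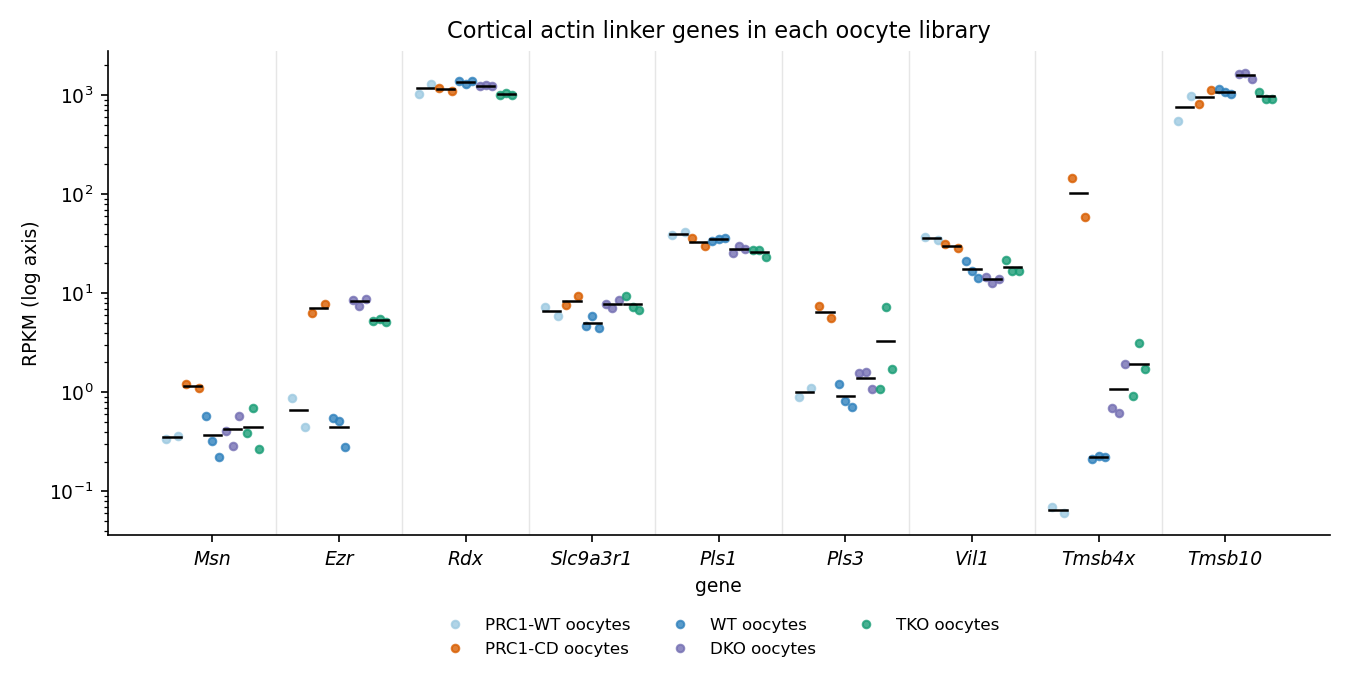
Level of each cortical actin linker gene in each oocyte library, in RPKM on a log axis. Points are libraries, bars are group means, and colours are the 5 oocyte groups, of which PRC1-WT and PRC1-CD come from a separate table. Ezr lies at 0.28 to 0.88 RPKM in both control groups and at 5.14 to 8.7 in the 3 mutant groups, while Rdx and Tmsb10 lie at 551 RPKM or more in every library.

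Ezr was higher in all 3 kinds of mutant oocyte. It read 0.88 and 0.45 RPKM in PRC1-WT oocytes and 6.39 and 7.83 in PRC1-CD. In the knockout set it read 0.55, 0.51 and 0.28 in WT, 8.62, 7.46 and 8.70 in DKO, and 5.26, 5.52 and 5.14 in TKO. No mutant library overlapped its controls, and the TKO libraries all lay below the DKO libraries. Its log2 change, always on the scale of log2(value + 1), was 2.29 ± 0.21 (SE) in PRC1-CD (limma adjusted p = 0.000529), 2.68 ± 0.11 in DKO (adjusted p = 8.08e-07) and 2.13 ± 0.11 in TKO (adjusted p = 7.82e-07). It was lower in TKO than in DKO by a log2 change of -0.55 ± 0.11 (adjusted p = 0.00287). With a pseudocount of 0.1 in place of 1, which compresses low values less, the TKO change was 3.34. In each table Ezr passed the filter only through the mutant groups. Without any filter its adjusted p was 0.0187 in PRC1-CD, 1.98e-05 in DKO and 1.18e-05 in TKO.

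Msn was the ERM gene with the lowest level in oocytes. It read 0.34 and 0.36 RPKM in PRC1-WT and 1.2 and 1.1 in PRC1-CD, groups that did not overlap, and rose by a log2 change of 0.67 ± 0.16 (limma adjusted p = 0.0214), or 1.47 with a pseudocount of 0.1. In that table Msn passed the filter only through PRC1-CD, and without any filter its adjusted p was 0.044. The call was lost with quantile normalisation (0.11, adjusted p = 0.664) and when PRC1-WT replicate 1 or PRC1-WT replicate 2 was left out (highest adjusted p = 0.133). In the knockout set Msn stayed under the filter, at 0.22 to 0.57 RPKM in WT, 0.29 to 0.57 in DKO and 0.27 to 0.69 in TKO, and the 3 ranges overlapped.

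Rdx, the main ERM transcript of the oocyte, was lower in TKO. It read 1403, 1306 and 1383 RPKM in WT, 1235, 1258 and 1231 in DKO, and 993, 1057 and 1002 in TKO, and no 2 of these groups overlapped. Against WT, TKO gave a log2 change of -0.42 ± 0.05 (limma adjusted p = 9.55e-05), and against DKO one of -0.29 ± 0.05 (adjusted p = 0.00112). The DKO difference from WT was -0.14 ± 0.05 (adjusted p = 0.067), and it passed the threshold when TKO replicate 1 or TKO replicate 2 was left out (lowest adjusted p = 0.0484) with median-ratio scaling (-0.18, adjusted p = 0.0438) or when only DKO and WT were fitted (adjusted p = 0.0384). In the catalytic-dead set Rdx read 1027 and 1306 RPKM in PRC1-WT and 1172 and 1112 in PRC1-CD, with a log2 difference of -0.02 ± 0.18 (adjusted p = 0.947).

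Slc9a3r1, whose product joins open ERM proteins to ion transporters and receptors, rose in both knockouts. It read 4.62, 5.92 and 4.46 RPKM in WT, 7.70, 7.02 and 8.45 in DKO, and 9.43, 7.34 and 6.78 in TKO, so that both knockout groups lay above WT. The log2 change was 0.54 ± 0.14 in DKO (limma adjusted p = 0.0156) and 0.56 ± 0.14 in TKO (adjusted p = 0.00757). The DKO call was lost without WT replicate 1, WT replicate 3 or DKO replicate 3 (highest adjusted p = 0.0656). PRC1-WT oocytes read 7.22 and 5.89 and PRC1-CD oocytes 7.55 and 9.31, a log2 difference of 0.32 ± 0.19 (adjusted p = 0.283).

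Pls1 fell in both knockouts and Pls3 rose in PRC1-CD. Pls1, the bundler of intestinal and inner-ear microvilli, read 33.7, 35.4 and 36.1 RPKM in WT, 25.4, 29.8 and 28.2 in DKO, and 27.4, 27.3 and 23.2 in TKO. Both knockout groups lay below WT, with log2 changes of -0.33 ± 0.09 in DKO (limma adjusted p = 0.0214) and -0.42 ± 0.09 in TKO (adjusted p = 0.0031). The DKO call was lost without WT replicate 2, WT replicate 3, DKO replicate 1 or DKO replicate 3 (highest adjusted p = 0.08). In PRC1-CD it read 36.2 and 29.6 against 38.7 and 41.1 in PRC1-WT, and the log2 difference of -0.28 ± 0.17 did not pass (adjusted p = 0.284).

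Pls3, the plastin of non-muscle cells generally, read 0.89 and 1.11 RPKM in PRC1-WT and 7.41 and 5.66 in PRC1-CD. It rose by a log2 change of 1.91 ± 0.20 (limma adjusted p = 0.000846). In the knockout set it read 1.21, 0.82 and 0.71 in WT, 1.55, 1.59 and 1.09 in DKO, and 1.07, 7.21 and 1.70 in TKO. One TKO library stood above all the others there, and neither the DKO difference (0.34 ± 0.41, adjusted p = 0.571) nor the TKO difference (0.91 ± 0.41, adjusted p = 0.0849) passed. Without that library, TKO replicate 2, the TKO difference was 0.31, and without TKO replicate 1 it passed, at 1.31 (adjusted p = 0.0196).

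Vil1 showed small differences. It read 21.2, 16.7 and 14.3 RPKM in WT, 14.6, 12.6 and 14.1 in DKO, and 21.4, 16.8 and 16.7 in TKO, and only DKO and TKO did not overlap. The log2 change of TKO against DKO was 0.38 ± 0.14 (limma adjusted p = 0.0496). That call was lost without the filter (adjusted p = 0.103), with quantile normalisation (adjusted p = 0.0681), with median-ratio scaling (adjusted p = 0.0783) and in 6 of 9 fits that left out 1 library (without WT replicate 2, each DKO replicate, TKO replicate 1 or TKO replicate 3). In the catalytic-dead set Vil1 read 37.0 and 34.8 in PRC1-WT and 31.5 and 28.3 in PRC1-CD (log2 difference -0.26 ± 0.16, adjusted p = 0.284).

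Tmsb4x, the main actin-monomer store of most somatic cells, stood highest over its controls in PRC1-CD oocytes. It read 0.07 and 0.06 RPKM in PRC1-WT and 147 and 58.9 in PRC1-CD, a log2 difference of 6.47 ± 0.38, given without a test because it was used in choosing the gene. In the knockout set it read 0.21, 0.23 and 0.22 in WT, 0.70, 0.62 and 1.91 in DKO, and 0.91, 3.11 and 1.73 in TKO. All 6 knockout libraries lay above WT, and none came near the PRC1-CD level. The log2 differences from WT were 0.71 ± 0.28 in DKO and 1.19 ± 0.28 in TKO, likewise without a test, or 1.72 and 2.50 with a pseudocount of 0.1. DKO and TKO overlapped, and their difference of 0.47 ± 0.28 did not pass (limma adjusted p = 0.19, or 0.0459 without TKO replicate 1).

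Tmsb10, the thymosin that oocytes do hold, separated the 2 knockouts. It read 1143, 1071 and 1035 RPKM in WT, 1634, 1680 and 1467 in DKO, and 1085, 913 and 922 in TKO. DKO lay above both other groups, with a rise of 0.56 ± 0.08 over WT on the log2 scale (limma adjusted p = 0.000736), and TKO was lower than DKO by a log2 change of -0.71 ± 0.08 (adjusted p = 9.46e-05). TKO against WT gave -0.16 ± 0.08 (adjusted p = 0.124), which passed without TKO replicate 1 (-0.24, adjusted p = 0.0185) and with median-ratio scaling (-0.26, adjusted p = 0.0281). In PRC1-WT it read 551 and 975 and in PRC1-CD 807 and 1121, ranges that overlapped (log2 difference 0.38 ± 0.29, adjusted p = 0.402).

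Counted together, 3 of the 8 genes open to a test in PRC1-CD rose (Msn, Ezr and Pls3) and 0 fell. In that comparison 22.9% of all tested genes were called, 17.3% higher and 5.61% lower. The 5 members that limma did not call had unadjusted p-values above the threshold too. In DKO 3 of 7 rose (Ezr, Slc9a3r1 and Tmsb10) and 1 fell (Pls1), where 28.8% of all genes were called, 17.5% higher and 11.3% lower. In TKO 2 of 7 rose (Ezr and Slc9a3r1) and 2 fell (Rdx and Pls1), where 51.3% were called, 31.2% higher and 20.1% lower. TKO against DKO gave 1 higher gene (Vil1) and 3 lower genes (Ezr, Rdx and Tmsb10) of 8, where 48.6% were called, 26.8% higher and 21.8% lower. The shares of members in the last pair of comparisons lie near those of all genes. Ranges did not overlap for 7 of 9 tested members in PRC1-CD, 6 of 8 in DKO, 5 of 8 in TKO and 4 of 8 in TKO against DKO, beside 63.4%, 50.3%, 59.7% and 54.7% of all tested genes. The counts in PRC1-CD, DKO and TKO against their controls take in Tmsb4x, whose difference there chose it. Msn, Ezr and Tmsb4x in the catalytic-dead table, and Ezr, Pls3 and Tmsb4x in the knockout table, passed the filter only through mutant groups, so these counts are descriptions. The DKO and TKO comparisons share the same 3 WT libraries.

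The direction of all calls moved with the scaling. Of the genes called in PRC1-CD, 75.5% were higher, or 51.1% with quantile normalisation, which took the median log2 difference of all genes from 0.04 to -0.085. In DKO the share was 60.8%, or 47.3% with quantile normalisation, and in TKO 60.8%, or 51.3% with quantile normalisation and 50.6% with median-ratio scaling. Apart from the calls of Msn in PRC1-CD and of Vil1 in TKO against DKO, the oocyte calls of the members held under both scalings.

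**Figure D2:**
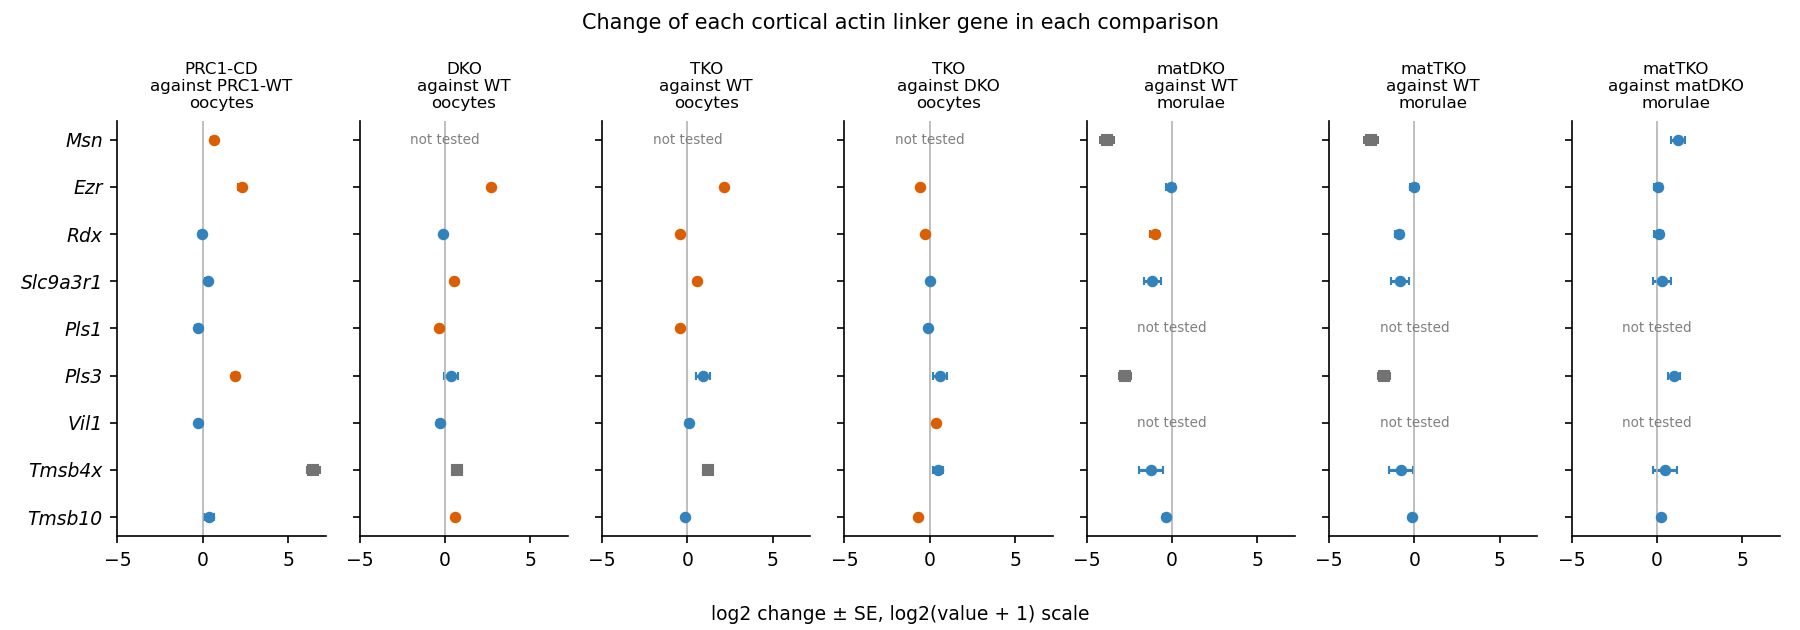
Log2 change of each cortical actin linker gene in the 7 comparisons, on the log2(value + 1) scale, with bars of 1 standard error. Orange circles passed an adjusted p of 0.05, blue circles did not, and grey squares are differences known when the genes were chosen and not tested. Ezr lies between 2.13 and 2.68 in the 3 oocyte comparisons with wild type and within 0.1 of 0 in morulae.

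Markers of other ovarian cells and of embryonic lineages differed beside the PRC1-CD rises. The summed level of 14 granulosa and cumulus markers was 22.3 and 22.5 RPKM in PRC1-WT and 46.8 and 54.3 in PRC1-CD (3 and 6 of the 14 at a mean of at least 1). Control and mutant means in RPKM were 0.55 and 15.3 for Fshr, and in the same order those of Ptgs2 were 0.12 and 5.21, of Cyp11a1 2.52 and 7.05, of Inha 0.285 and 1.63, of Kitl 1.25 and 2.16, and of Cyp19a1 17.2 in both. Amh stood at 0.025 and 0, Foxl2 at 0 and 0.065, and Ptx3 at 0 in both. The sum of 12 ovarian stroma and blood markers was 9.34 and 11.02 in PRC1-WT and 12.5 and 13.4 in PRC1-CD, with 9 and 6 of the 12 at 0 in every library. Dcn had means of 1.0 and 5.42 RPKM, Lum 0 and 0.685, and Pecam1 9.17 and 6.77. The 10 trophectoderm markers summed to 39.0 and 39.4 RPKM in PRC1-WT and to 74.8 and 83.5 in PRC1-CD. The 10 inner cell mass markers summed to 40.6 and 47.2, and to 53.0 and 66.9. Among them Krt8 had means of 1.43 and 39.9 and Sox2 of 0.37 and 4.22. Gata3, at 14.3 and 5.81, and Pou5f1, at 23.0 and 19.4, went the other way. In the knockout set the granulosa sum was 26.0 to 29.8 in WT, 20.7 to 22.7 in DKO and 24.8 to 30.7 in TKO, and the stroma and blood sum 9.35 to 10.7, 6.05 to 8.29 and 11.5 to 16.1. Its highest value in both lists belonged to TKO replicate 2, the library with the highest Pls3 and Tmsb4x of that set. In DKO, the group with the highest Ezr of that set, the granulosa sum and the stroma and blood sum lay below those of WT, but single markers differed. In WT and DKO, the mean of Cyp19a1 was 23.3 and 15.1 RPKM, of Pecam1 7.61 and 6.21, and of Dcn 2.42 and 0.587. Cyp11a1 went the other way, at 1.69 and 2.67, as did Inha at 0.197 and 1.04 and Ptgs2 at 0.163 and 0.56. In the knockout set the trophectoderm sum was 35.8 to 37.0 in WT, 38.4 to 45.5 in DKO and 49.9 to 57.4 in TKO. The inner cell mass sum was 36.1 to 38.3, 46.6 to 49.7 and 67.3 to 83.0 in the same order. The part of other ovarian cells in the PRC1-CD, DKO and TKO values was not tested.

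Morulae were next compared to ask which of these transcripts differ in embryos labelled as maternal knockouts. Msn was 17.6-fold lower in matDKO than in WT by group means, and Pls3 9.72-fold lower, while Ezr differed by less than its spread between libraries. Msn ran from 10.9 through a median of 30.1 to 63.9 TPM in WT, from 0 through 0.82 to 5.83 in matDKO, where 2 libraries were listed at 0, and from 0.15 through 4.09 to 13.1 in matTKO. The lowest WT library lay above every matDKO library, and the highest matTKO library lay above the lowest WT library. Pls3 ran from 9.20 through 17.5 to 42.2 TPM in WT, from 0.08 through 1.78 to 4.23 in matDKO, and from 1.86 through 3.03 to 25.8 in matTKO. It overlapped in the same way, since matDKO stayed below WT throughout and 2 matTKO libraries, at 10.1 and 25.8, reached the WT range.

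The log2 differences from WT were -3.79 ± 0.41 for Msn and -2.78 ± 0.35 for Pls3 in matDKO, and -2.57 ± 0.41 and -1.80 ± 0.35 in matTKO. They are descriptions, because they were used in choosing the genes, and both comparisons share the 10 WT libraries. Leaving out each library in turn kept Msn between -3.98 and -3.67 in matDKO and Pls3 between -2.88 and -2.63. In matTKO the ranges were -2.73 to -2.33 and -2.05 to -1.67. The difference between the mutants was open to a test. Msn was higher in matTKO than in matDKO by 1.22 ± 0.41 and Pls3 by 0.98 ± 0.35, and neither passed (limma adjusted p = 0.441 and 0.491).

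**Figure D3:**
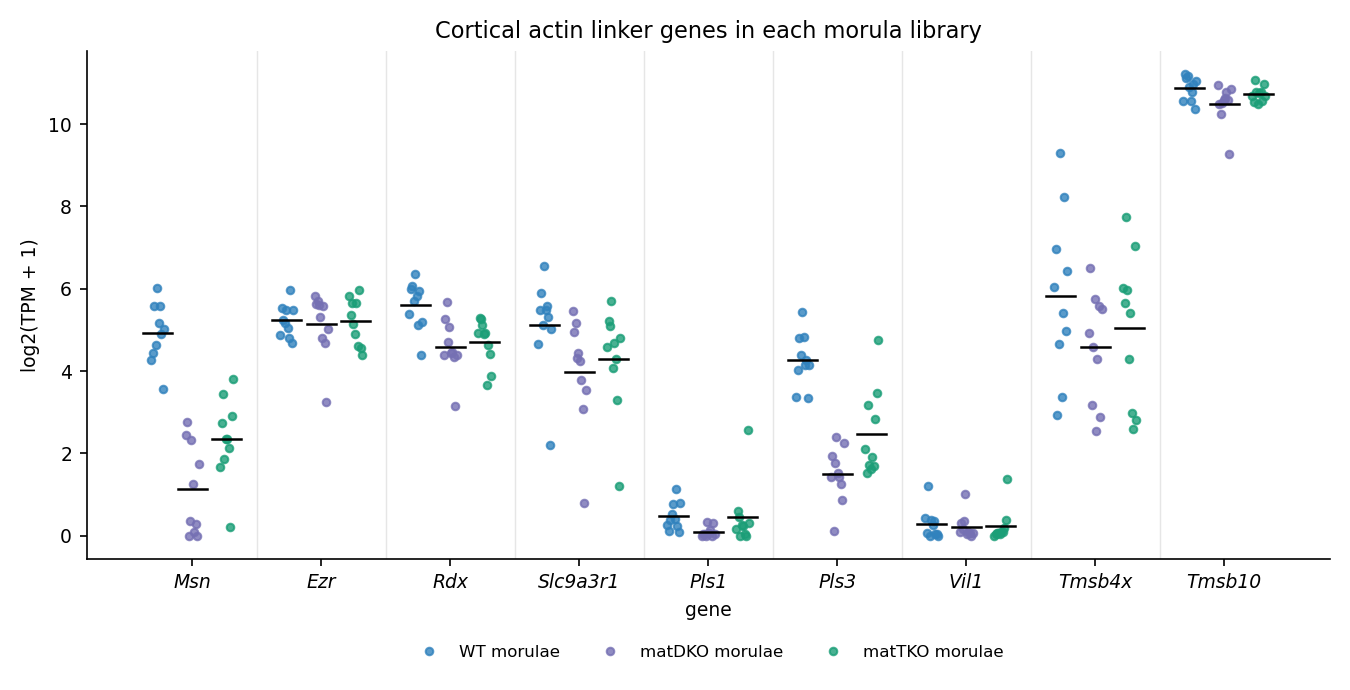
Level of each cortical actin linker gene in each of 30 morula libraries, as log2(TPM + 1). Points are libraries, bars are means of the log values, and colours are WT, matDKO and matTKO. Msn and Pls3 of matDKO lie below every WT library, the Ezr groups overlap, and Pls1 and Vil1 lie near 0 in nearly every library.

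Of the 5 members whose morula differences from WT were open to a test, Rdx alone passed. It ran from 20.1 through 53.2 to 81.6 TPM in WT, from 7.86 through 20.96 to 49.7 in matDKO and from 11.6 through 29.2 to 37.99 in matTKO, with overlap between all groups. Its matDKO log2 change was -1.01 ± 0.26 (limma adjusted p = 0.0388), and the matTKO difference was -0.90 ± 0.26 (adjusted p = 0.0947). The matDKO call was lost without the filter (adjusted p = 0.0903) and in 11 of 30 fits that left out 1 library (WT replicates 2, 3, 4, 5, 6 and 8, matDKO replicates 6, 7, 8, 9 and 10; highest adjusted p = 0.09). The matTKO difference passed without WT replicate 9 (-1.04, adjusted p = 0.0343) and with quantile normalisation (-0.84, adjusted p = 0.0499).

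Ezr, the ERM protein best known from compaction, gave means of 37.9, 38.0 and 38.4 TPM in WT, matDKO and matTKO, with log2 differences from WT of -0.09 ± 0.26 (limma adjusted p = 0.881) and -0.03 ± 0.26 (adjusted p = 0.977). Slc9a3r1 ran from 3.59 through 41.2 to 92.5 TPM in WT, from 0.72 through 18.4 to 42.9 in matDKO and from 1.32 through 23.8 to 50.9 in matTKO. Its log2 differences of -1.15 ± 0.52 and -0.83 ± 0.52 did not pass (adjusted p = 0.244 and 0.512). Replicate 9 was the lowest library for Slc9a3r1 in every group.

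Tmsb4x spread widely among morulae of 1 group. It ran from 6.65 through 53.4 to 631 TPM in WT, from 4.87 through 25.99 to 90.2 in matDKO and from 5.01 through 45.1 to 212 in matTKO. The log2 differences of -1.25 ± 0.72 and -0.78 ± 0.72 lay within that spread (limma adjusted p = 0.37 and 0.684). Tmsb10 was steadier, with means of 1899 ± 366, 1500 ± 380 and 1713 ± 233 TPM and log2 differences of -0.37 ± 0.15 and -0.13 ± 0.15 (adjusted p = 0.189 and 0.745). Pls1 and Vil1, 2 of the oocyte's leading members, had group means between 0.07 and 0.651 TPM and between 0.189 and 0.251 and were not tested.

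Of the 5 genes open to a test in matDKO morulae, 0 rose and 1 fell (Rdx), where 1.74% of all tested genes were called, 0.329% higher and 1.41% lower. In matTKO 0 of 5 were called by limma, where 0.567% of all genes were called, 0.176% higher and 0.391% lower, and 1 of the 5 (Rdx) had an unadjusted p under 0.05. Between the mutants 0 of 7 were called, where 0.0689% of all genes were called, 0.046% higher and 0.023% lower, and 2 of the 7 (Msn and Pls3) had an unadjusted p under 0.05. Ranges did not overlap for 2 of 7 tested members in matDKO (Msn and Pls3, whose difference chose them) beside 0.153% of all genes, for 0 of 7 in matTKO beside 0.0689%, and for 0 of 7 between the mutants beside 0.0153%. Of all genes called in matDKO 18.9% were higher, or 40.4% with quantile normalisation and 37.0% with median-ratio scaling. In matTKO 31.1% were higher, or 43.8% with quantile normalisation.

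The 3 X-linked members were set beside the other genes of that chromosome, since Msn and Pls3 had the largest morula differences among the 7 tested members. In matDKO the 397 tested X-linked genes had a median log2 difference of -0.42, and 64 of them (16.1%) were called lower and 2 higher. The 12027 autosomal genes had a median of -0.09, with 115 (0.956%) called lower. In matTKO the X-linked median was -0.48 with 30 genes (7.56%) called lower, and the autosomal median -0.05 with 20 called lower (0.166%). Among X-linked genes, 2 fell at least as far as Msn in matDKO and 3 as far as Pls3, each count with the gene itself, and in matTKO 6 and 15 did. Among the 12027 autosomal genes, 1 and 3 did so in matDKO, and 1 and 11 in matTKO. Tmsb4x, at -1.25 and -0.78, did not pass in either. In oocytes the X-linked and autosomal medians were 0.21 and 0.03 in PRC1-CD, 0.09 and 0.03 in DKO, and 0.01 and 0.10 in TKO. For TKO against DKO they were -0.11 and 0.04.

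**Figure D4:**
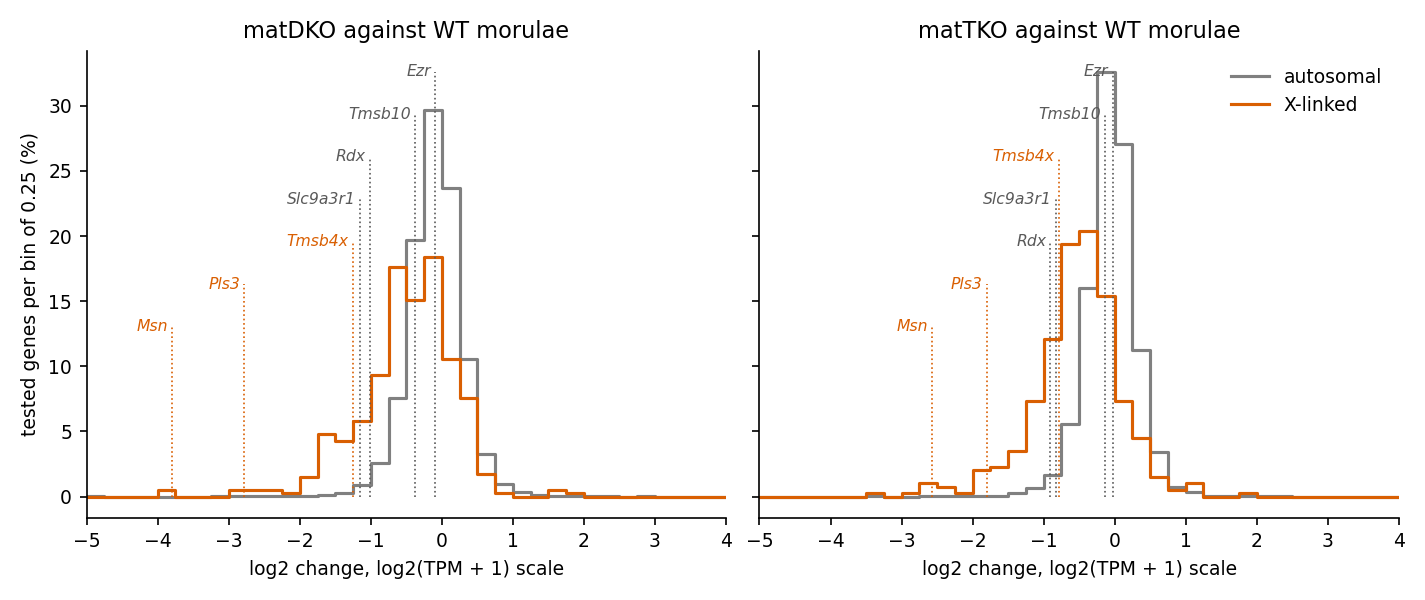
Distribution of log2 changes of tested X-linked (orange, 397 genes) and autosomal (grey, 12027 genes) genes in matDKO and matTKO morulae against WT, as the percent of genes per bin of 0.25. Dotted lines mark the 7 tested members, orange where X-linked. The orange curve lies to the left of the grey one, and Msn and Pls3 lie in its left tail.

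Xist, the RNA that silences 1 X chromosome in female cells, and Y-linked RNA were measured beside these values. The summed level of 4 Y-linked genes was either at most 0.62 TPM or at least 31.7 TPM, with 5 WT, 3 matDKO and 8 matTKO libraries in the upper class. In libraries with Y-linked RNA, Xist ran from 1.74 to 11.6 TPM in WT, from 24.7 to 30.6 in matDKO and from 16.5 to 62.2 in matTKO. In those without it, Xist ran from 23.3 to 67.8 in WT, from 51.5 to 120 in matDKO and from 38.2 to 70.3 in matTKO. Xist was listed at 0 in every oocyte library.

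Msn and Pls3 are described here within each class, with no test. With Y-linked RNA, Msn ran from 20.6 to 63.9 TPM in WT, 0 to 2.32 in matDKO and 0.15 to 13.1 in matTKO. Without it, Msn ran from 10.9 to 47.1, 0 to 5.83 and 2.17 to 5.70. Pls3 ran from 15.3 to 42.2, 0.08 to 3.75 and 2.09 to 25.8 TPM with Y-linked RNA, and from 9.20 to 18.2, 0.82 to 4.23 and 1.86 to 3.30 without it. Within both classes the matDKO ranges of both genes lay below WT, as did those of Msn in matTKO, while Pls3 in matTKO overlapped WT among libraries with Y-linked RNA. In matDKO the log2 differences from WT were -4.17 with and -3.49 without Y-linked RNA for Msn, and -3.4 and -2.275 for Pls3. In matTKO they were -2.78 and -2.47 for Msn, and -2.05 and -2.05 for Pls3, the latter of each pair over 2 matTKO libraries. For Rdx in matDKO the values were -1.16 (limma adjusted p = 0.257) and -0.73 (adjusted p = 0.693), so its call held in neither class alone, and it was lost with Y-linked RNA as a covariate (adjusted p = 0.0625). The part of X-chromosome dosage in the Msn and Pls3 values was not tested.

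**Figure D5:**
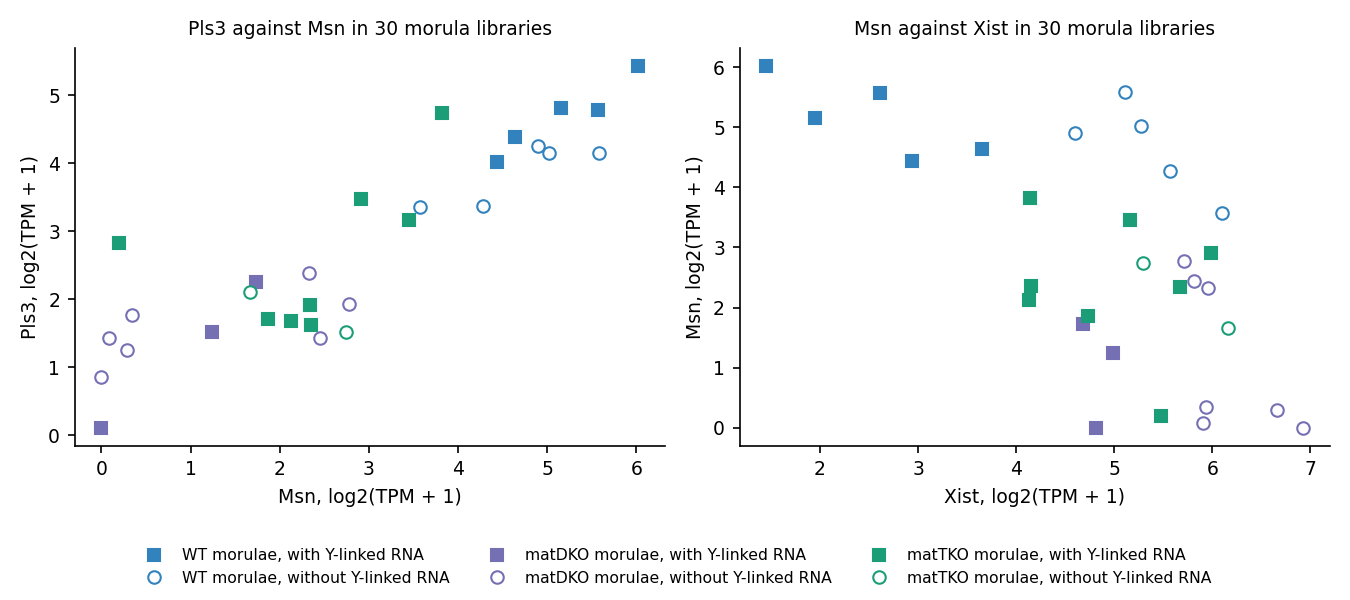
Left, Pls3 against Msn, and right, Msn against Xist, in 30 morula libraries as log2(TPM + 1). Colours are the 3 groups, and filled squares are libraries with Y-linked RNA, open circles those without. WT libraries with Y-linked RNA have Xist at 1.74 to 11.6 TPM and Msn at 20.6 to 63.9, and matDKO libraries with Y-linked RNA have Xist at 24.7 to 30.6 and Msn at 0 to 2.32.

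Other differences between morula libraries ran along with the groups. The summed level of 10 trophectoderm markers had a median of 2687 TPM in WT (range 1091 to 4008), 1677 in matDKO (312.6 to 2642) and 1694 in matTKO (353.1 to 2519). That of 10 inner cell mass markers had medians of 416, 388 and 402. The 4 libraries that correlated least with the rest, at a mean r of 0.868 to 0.901 over all genes, were replicates 8 and 9 of matDKO and of matTKO. Without them Msn stood at -3.55 and Pls3 at -2.67 in matDKO, Msn at -2.37 and Pls3 at -1.965 in matTKO, and the Rdx call was lost (-0.805, limma adjusted p = 0.0834). The part of trophectoderm content in these differences was not tested.

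Within the WT morulae, Msn and Pls3 were correlated by Pearson's r, while Spearman's rho did not pass after adjustment. Pearson's r was 0.858 over 10 libraries (permutation p = 0.00143, adjusted over 12 relations 0.0172) and Spearman's rho 0.794 (permutation p = 0.00844, adjusted 0.101). Without the 2 libraries farthest from the median of Msn, r was 0.672. It was 0.667 in matDKO (permutation p adjusted 0.136) and 0.449 in matTKO (permutation p adjusted 0.4), and the 9 relations of Msn with Tmsb4x and Ezr and of Pls3 with Tmsb4x were not called either, with adjusted permutation p from 0.136 to 0.794. Within the classes of Y-linked RNA there were too few WT libraries (5 and 5) to repeat the relation. WT replicate 5 had the highest Msn, Pls3, Rdx and Slc9a3r1 of its group and the highest trophectoderm marker sum, 4008 TPM. WT replicate 9 had the lowest of each, with that sum at 1091 TPM. The part of trophectoderm content in the relation was not tested.

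The genes most like Msn across the 30 morula libraries, by Pearson's r over log values, were Pls3 (0.882), Pgk1 (0.839) and Haus7 (0.832). Those most like Pls3 were Msn (0.882), Gk (0.878) and Pgk1 (0.869). All of them are X-linked, and since the groups differ, r within groups was lower, at 0.585 for Msn with Pls3, 0.437 for Msn with Pgk1 and 0.657 for Pls3 with Gk. Over all libraries r takes in the group differences for which Msn and Pls3 were chosen, so these rankings are descriptions. Pgk1, an enzyme of glycolysis, had means of 48.2, 3.25 and 9.47 TPM in WT, matDKO and matTKO. Ezr stood far from Msn, at an r of 0.076. Across the 9 knockout-set oocyte libraries the genes most like Tmsb4x were Grp (0.977), Tnfrsf19 (0.974) and Luc7l (0.969), 3 autosomal genes. That ranking likewise takes in the differences for which Tmsb4x was chosen. Grp, a gastrin-releasing peptide gene, had means of 0.09, 0.493 and 1.25 RPKM in WT, DKO and TKO, and its highest library was TKO replicate 2, as for Tmsb4x.

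The wider actin cortex was followed with 5 lists of 65 genes in all. In PRC1-CD oocytes 6 of 43 tested list genes rose and 3 fell, 20.9% called, with a median log2 difference of -0.14 beside 0.04 for all genes. Those 9 calls rest on every library, since 1 to 3 were left when any 1 of the 4 was taken out, and 5 without the filter. In DKO 6 of 44 rose and 8 fell (31.8%, median -0.02 beside 0.03), with 8 calls left without WT replicate 2 or WT replicate 3, and in TKO 14 rose and 13 fell (61.4%, median 0.08 beside 0.09). TKO against DKO gave 14 higher and 10 lower (54.5%, median 0.10 beside 0.04). These shares stand beside 22.9%, 28.8%, 51.3% and 48.6% of all tested genes.

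Among ERM partners and kinases (16 listed), 1 of 9 rose in PRC1-CD, 1 rose and 2 fell in DKO, and 3 rose and 2 fell in TKO. Stk10, a kinase of ERM proteins, rose in PRC1-CD from 1.07 to 2.38 RPKM (0.70 ± 0.18, limma adjusted p = 0.0315) and in TKO from 1.45 to 2.75 (0.58 ± 0.17, adjusted p = 0.018). The first call was lost without any 1 of the 4 libraries (highest adjusted p = 0.142), without the filter (adjusted p = 0.105) and with quantile normalisation (0.39, adjusted p = 0.148). The second was lost without the filter (adjusted p = 0.0524) and without WT replicate 3, TKO replicate 2 or TKO replicate 3 (highest adjusted p = 0.068). Nf2, the ERM relative merlin, fell in DKO from 3.86 to 2.34 RPKM (-0.54 ± 0.13, adjusted p = 0.0106), and Slc9a3r2, the close relative of Slc9a3r1, fell in TKO from 8.11 to 4.14 RPKM (-0.85 ± 0.24, adjusted p = 0.0146). These calls were lost without WT replicate 3 for Nf2 (adjusted p = 0.052) and without WT replicate 1 for Slc9a3r2 (adjusted p = 0.0599).

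Among the actin crosslinkers (10 listed), 1 rose and 1 fell of 6 in PRC1-CD, 1 and 1 of 7 in DKO, and 2 and 1 of 7 in TKO. Eps8, which caps and bundles filaments in microvilli, fell in all 3, from 57.2 to 36.9 RPKM in PRC1-CD (-0.61 ± 0.16, limma adjusted p = 0.033), from 50.4 to 33.9 in DKO (-0.56 ± 0.07, adjusted p = 0.000258) and to 43.3 in TKO (-0.22 ± 0.07, adjusted p = 0.0237). The Eps8 call held in DKO without each library in turn, but not in PRC1-CD without any 1 of the 4 (highest adjusted p = 0.17) or without the filter (adjusted p = 0.0657), nor in TKO without WT replicate 2, WT replicate 3 or TKO replicate 3 (highest adjusted p = 0.079). In the villin and gelsolin family (7 listed), 1 rose and 1 fell of 3 in PRC1-CD, 0 and 1 of 2 in DKO, and 1 and 1 of 2 in TKO. Scin, a filament-severing gene, fell in each, with log2 changes of -0.70 ± 0.18, -0.65 ± 0.14 and -0.82 ± 0.14 (limma adjusted p = 0.0319, 0.00733 and 0.001). In PRC1-CD that call was lost without any 1 of the 4 libraries (highest adjusted p = 0.198) and without the filter (adjusted p = 0.0702).

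Among the genes for actin and its monomer binders (14 listed), 2 rose and 1 fell of 11 in PRC1-CD, 2 rose and 2 fell of 12 in DKO, and 2 rose and 6 fell in TKO. Tmsb15l, an X-linked beta-thymosin gene, rose from 2.14 to 14.7 RPKM in PRC1-CD (2.33 ± 0.19, limma adjusted p = 0.000348) and from 5.56 to 10.8 in DKO (0.85 ± 0.23, adjusted p = 0.019), and fell to 0.357 in TKO (-2.27 ± 0.23, adjusted p = 3.53e-05). The DKO call was lost without WT replicate 2, WT replicate 3, DKO replicate 1 or DKO replicate 3 (highest adjusted p = 0.078), with a pseudocount of 0.1 (0.95, adjusted p = 0.113) and without the filter (adjusted p = 0.0532), and the other oocyte calls held without each library in turn. With a pseudocount of 0.1 the TKO change was -3.80. Tmsb15b1 and Tmsb15b2 are near-identical neighbours of Tmsb15l, so how reads were split among these copies is uncertain. In TKO, Tmsb15b1 fell along with Tmsb15l, from 9.75 RPKM in WT to 1.12 (-2.37 ± 0.21, limma adjusted p = 1.79e-05). Tmsb15b2 fell from 36.2 to 21.9 RPKM in PRC1-CD (limma adjusted p = 0.0323), where Tmsb15l rose. It fell from 40.7 to 24.6 in DKO (adjusted p = 0.00341) and to 22.05 in TKO (adjusted p = 0.000588). Its PRC1-CD call was lost without any 1 of the 4 libraries (highest adjusted p = 0.203) and without the filter (adjusted p = 0.0804). Actb rose in TKO from 63.1 to 95.7 RPKM (0.59 ± 0.11, adjusted p = 0.00134).

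Among compaction and polarity genes (18 listed), 1 of 14 rose in PRC1-CD, 2 rose and 2 fell in DKO, and 6 rose and 3 fell in TKO. Prkcz, an atypical protein kinase C of the apical domain, rose in PRC1-CD, in DKO and in TKO by 0.71 ± 0.17, 0.80 ± 0.12 and 0.59 ± 0.12 on the log2 scale (limma adjusted p = 0.0214, 0.000732 and 0.00198). In PRC1-CD the call was lost without PRC1-WT replicate 1, PRC1-WT replicate 2 or PRC1-CD replicate 2 (highest adjusted p = 0.121), without the filter (adjusted p = 0.0646) and with quantile normalisation (0.29, adjusted p = 0.241). Prkcz passed the filter only through the mutant groups, with means of 0.545 RPKM in PRC1-WT and 0.4 in WT against 1.53 in PRC1-CD, 1.43 in DKO and 1.10 in TKO. A pseudocount of 0.1 gave Prkcz changes of 1.34, 1.66 and 1.31. Prkci, the other atypical protein kinase C listed, fell in DKO from 4.21 to 2.87 RPKM (-0.43 ± 0.13, limma adjusted p = 0.033). In TKO it fell to 2.41 (-0.61 ± 0.13, adjusted p = 0.00322). Its DKO call was lost without WT replicate 2, WT replicate 3, DKO replicate 1 or DKO replicate 2 (highest adjusted p = 0.123). That call was also lost without the filter (adjusted p = 0.0672). Ctnnd1, the catenin that stabilises E-cadherin, fell in TKO from 5.22 to 1.78 RPKM (-1.16 ± 0.10, limma adjusted p = 1.93e-05), while Ctnnb1 rose from 47.0 to 71.7 (0.59 ± 0.11, adjusted p = 0.00134).

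In morulae 53 list genes were tested. By limma 1 was called in matDKO, 0 in matTKO and 0 between the mutants, with 13, 5 and 2 at an unadjusted p under 0.05. The 1 called gene was Tmsb15l, at means of 1.02 TPM in WT and 0.049 in matDKO (-0.88 ± 0.19, adjusted p = 0.0143, or -2.86 with a pseudocount of 0.1). Tmsb15l passed the filter only through WT, the group where it is highest, so its call is a description. Its WT mean is so near the filter that it dropped out of the test without WT replicate 4, 5, 6 or 7. Without any filter the call held, and with only libraries holding Y-linked RNA it was lost (-1.158, limma adjusted p = 0.187). The median log2 difference of the list genes was -0.26 in matDKO beside -0.09 for all genes, and -0.19 in matTKO beside -0.06.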

How the data were processed

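Libraries were made from polyadenylated RNA with the SMART-Seq v4 and Nextera XT kits, per the labels' protocols, and do not mark the strand. The submitters' processing notes name featureCounts 1.6.0, RSEM 1.3.1, 2 releases of STAR (2.7.6 and 2.7.3) and Trim Galore 0.6.4, and the builds mm10 and GRCm38, without saying which tool made which table. The authors deposited RPKM values for both oocyte sets. The morula table deposited by the authors is titled RPKM, but each library sums to between 999421 and 999922, so its values were taken as TPM and tested in the way planned for RPKM. No depth can be read from these units. Symbols turned into dates (27 in each of the oocyte tables) were dropped.

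Groups came from sample titles. Values were tested as log2(value + 1) over all genes averaging 1 or more in some group, using limma 3.58.1 (R 4.3.3, eBayes with trend), two-sided, with p-values adjusted by Benjamini and Hochberg's method across every gene tested in the comparison and called under 0.05. All groups of a table shared the spread, and tests stayed within a table. A change on this scale understates that of low genes. Nothing in the labels ties replicates to different animals. The p-values therefore cover the spread among these libraries, which may be technical. Relations used permutation tests with 100000 resamples (scipy 1.17.1). The members, the gene lists and the tests were chosen with earlier results of these data known. Named genes are the 9 members, up to 3 called genes per list, direction and comparison with the largest change, the 3 genes most like Msn, Pls3 and Tmsb4x, the targeted genes and Xist. Alternatives were a pseudocount of 0.1, no filter, quantile and median-ratio scaling, a replicate block, fits of 2 groups, Y-linked RNA as a covariate, leaving out each library, and, chosen after seeing the data, morulae split by Y-linked RNA or without the 4 least correlated.

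Gene positions are from GENCODE on GRCm38, and promoter windows from RefSeq on GRCm38.p6, where 9 of 9 genes matched.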

Additional observations from a re-analysis of the deposited data

Results flagged for a closer look

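Of 27 sets of 10 morula libraries (9 genes in 3 groups), 9 had a highest or lowest library far from the others by Dixon's criterion at the 95% level, of which chance gives about 1 in 20. In matDKO replicate 9, Ezr stood at 8.45 TPM (next lowest 24.7), Rdx at 7.86 (19.4), Slc9a3r1 at 0.72 (7.41) and Tmsb10 at 622.9 (1211). In WT replicate 9, Slc9a3r1 stood at 3.59 TPM (24.1). Pls1 stood at 4.89 TPM in matTKO replicate 9 (next highest 0.52), the library in which the summed level of stroma and blood markers was also highest, at 55.9 TPM. Vil1 stood at 1.31 TPM in WT replicate 3 (0.34), at 1.02 in matDKO replicate 5 (0.28) and at 1.58 in matTKO replicate 10 (0.31).

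For Pls3 every DKO oocyte library lay above the WT mean and every matDKO morula below it, with log2 differences of 0.34 (0.335 unrounded) and -2.78. For Tmsb4x the same was so against the WT means in RPKM and TPM, with log2 differences of 0.71 (0.714) and -1.25 (-1.255). The WT morula mean of 131 TPM holds 1 library at 631, and matDKO replicate 2, at 90.2 TPM, lay above the WT median of 53.4. The difference between oocytes and morulae was not tested.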

How the results depend on the processing

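Over 53 settings, 1185 of 1281 recomputed values for members kept their direction and their side of the threshold, 41 lost it, 16 gained it and 39 changed sign. The recomputed values include the differences used in choosing Msn, Pls3 and Tmsb4x, so these counts are descriptions. For named genes of the lists, 93 of 910 lost the call and 0 changed sign, and the count of list genes called in matDKO morulae (1) came to 3 with a replicate block and to 0 in both classes of Y-linked RNA. The counts of members past the threshold in morulae include Msn and Pls3, whose fall chose them, so they are descriptions. The count of 3 in matDKO came to 1 with only libraries holding Y-linked RNA, where Pls3 stood at -3.4. The count of 2 in matTKO came to 0 with a pseudocount of 0.1, where Msn stood at -2.981 and Pls3 at -2.045. It came to 1 with only libraries holding Y-linked RNA (Pls3 -2.048) and to 0 with only those lacking it (Msn -2.467, Pls3 -2.045). Fewer libraries entered the split fits, and for the pseudocount the cause was not tested. Leaving out 1 library moved the 4 members called in DKO to between 2 (without WT replicate 3 or DKO replicate 3) and 6 (without TKO replicate 1 or TKO replicate 2). The count of 6 takes in Rdx and also Tmsb4x, whose rise chose it, so it is a description as well. Genes called over the whole table numbered 227 in matDKO and 74 in matTKO. They came to 93 and 32 without the filter, 6 and 18 with only libraries holding Y-linked RNA, and 7 and 1 with only those lacking it. In matTKO they came to 21 with a pseudocount of 0.1, 137 with quantile scaling, 127 in a fit of 2 groups and 183 without the 4 least correlated morulae.

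Sign changes were of differences that had not passed. Quantile and median-ratio scaling gave -0.003 and -0.017 for Vil1 in TKO against WT, -0.021 and -0.036 for Slc9a3r1 in TKO against DKO, 0.037 and 0.003 for Ezr in matDKO and 0.045 and 0.026 for Ezr in matTKO. Without the 4 least correlated morulae, Ezr stood at 0.204 in matDKO and, for matTKO against matDKO, at -0.244, with Rdx at -0.056. With only libraries holding Y-linked RNA that comparison gave -0.235 for Rdx, -0.071 for Ezr and -0.172 for Slc9a3r1, and with the covariate -0.053 for Rdx. With only those lacking it, matTKO against WT gave 0.421 for Ezr and 0.357 for Slc9a3r1. Leaving out 1 library spanned -0.194 to 0.153 for Rdx and -0.035 to 0.787 for Tmsb10 in PRC1-CD, -0.048 to 0.22 for Vil1 in TKO, -0.112 to 0.1 for Slc9a3r1 and -0.021 to 0.973 for Pls3 in TKO against DKO, -0.167 to 0.12 for Ezr in matDKO, -0.111 to 0.064 for Ezr in matTKO, and -0.147 to 0.154 for Ezr, -0.05 to 0.229 for Rdx and -0.033 to 0.664 for Slc9a3r1 between the morula mutants.

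The labels do not say that a replicate number marks shared material. Same-numbered libraries correlated at 0.088 in the catalytic-dead set. There 4 of 4 matched their own number best, but with 2 libraries per group that count follows from the sign of r. The correlation was -0.048 to 0.109 in the knockout oocytes (2 of 9 matched best) and -0.167 to 0.569 in morulae (11 of 30). The libraries were therefore not treated as paired. With a replicate block, the members called among those open to a test stayed at 3, 4, 4 and 4 in the oocyte comparisons. In morulae they went from 1 to 2 in matDKO (Slc9a3r1 added, -1.153, adjusted p = 0.0112), from 0 to 1 in matTKO (Rdx, -0.905, adjusted p = 0.00498) and stayed at 0 between the mutants. Genes called by limma over the whole table came to 607 and 183 in the first pair.

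RPKM and TPM give no depth, so values near 0 carry no counting error here. With 2 PRC1 libraries per group, precision rests on the spread shared over genes.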
